A study of Mus musculus with 11 samples.

Results

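The genes of the Nrf2 system measured in these corneas were Nfe2l2, which encodes the transcription factor Nrf2, Keap1, which encodes its cytoplasmic inhibitor, and the small Maf genes Maff, Mafg and Mafk, which encode its DNA-binding partners. They were taken by name, as the rows that the tables list as NFE2L2, KEAP1, MAFF, MAFG and MAFK, and make up 5 of the 248 genes of the panel. The samples were corneas of female C57BL/6 mice (C57BL/6J in the study's methods) after 5 days of desiccating stress, in which all animals, the vehicle group included, drank scopolamine to inhibit tear secretion and were kept in a drafty room of low humidity. Eye drops given 2 times a day held vehicle (3 samples), the pan-Trk agonist pan at 10 μM (4 samples) or the TrkC agonist C1 at 10 μM (4 samples). No unstressed cornea is among the samples, so every value is one under stress. One age label gives 3 months for all mice. A second one puts all C1 samples and pan replicate 4 at 22 to 24 months, and the rest, namely vehicle and the other pan samples, at 2 to 3 months. The study's methods describe mice some weeks old, which goes against the older label, and values within that label are given with this doubt. Where the second label does hold, age and treatment cannot be told apart between C1 and vehicle.

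Keap1 holds Nrf2 in the cytoplasm and hands it to a ubiquitin ligase, so that little Nrf2 reaches the nucleus of an unstressed cell. Oxidants and electrophiles modify cysteines of Keap1, and the Nrf2 that escapes degradation pairs with a small Maf protein on antioxidant response elements of detoxifying genes. Small Maf proteins lack an activation domain, and as pairs among themselves they occupy similar elements without activating them. Most of this control acts on protein, which the present data do not measure: the panel counted RNA.

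The core of the antioxidant response element was searched as TGACNNNGC on both strands of RefSeq promoter windows (assembly GRCm38.p6), each of 300 bases, of which 250 lie before a gene's start. The core shares its first letters with the sites of AP-1 and CREB factors. It was present in 12.4% of 32851 windows, and in 35 of the 185 panel genes that had a window (18.9%). Of the 7 windows of the members it was present in 4, one each for Nfe2l2, Mafk, Mafg and Maff, and a window of Keap1 had no match to these letters. The matches are shown because the members are themselves the factors that read this element. The capitals mark the core, each line is written in the direction in which it reads TGAC, and a match is only a match of letters.
Nfe2l2: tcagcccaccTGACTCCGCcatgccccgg
Mafk: tccccagtacTGACACCGCttccgggatc
Mafg: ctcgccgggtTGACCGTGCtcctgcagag
Maff: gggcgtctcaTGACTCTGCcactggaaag
The Nfe2l2 stretch lies at chr2:75704885-75704913, with its core starting 240 bases before the start of the gene, and has the gene's own direction. That of Mafk, at chr5:139791513-139791541, and that of Mafg, at chr11:120633751-120633779, run opposite to their genes. The Maff stretch, at chr15:79346499-79346527, has the gene's direction and belongs to 1 of the 3 windows of that gene. No binding was measured at these positions.

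A level is given here as a log2 normalized count: the number of times that the probe of a gene was counted, scaled on housekeeping genes. The sum of all probe counts lay between 91955 and 133098 for vehicle, between 64156 and 646446 for pan, and between 165828 and 525997 for C1. Pan replicates 1 and 3 had the lowest totals (64156 and 81855) and pan replicate 4 the highest, so the members' comparisons with the pan group are also given without replicates 1 and 3. Their range with 1 sample left out at a time is given beside it, since leaving out other samples can widen a difference. The members stood far above background, which was taken from 20 genes not expected in a cornea and averaged 4.64 to 11.985 normalized counts. The lowest member count was 65, for Maff in pan replicate 1, and no member was under 29.2 times the background in any sample. All 5 members were among the 131 genes whose log2 values averaged 5 or more, called well detected below. None of the 8 corneal epithelial marker genes listed for this purpose is on the panel, and neither is any of 13 canonical Nrf2 target genes or of 7 partners of Keap1 and the Mafs. The labelled tissue could therefore not be checked against its own markers, nor Nrf2 activity against its targets.

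Nfe2l2 RNA was the member with the widest difference between the treatments. Its log2 level was 11.65, 11.37 and 11.57 in vehicle replicates 1 to 3. In the pan samples it was 12.56, 12.03, 12.25 and 11.17 for replicates 1 to 4, and in the C1 samples 11.67, 11.33, 10.98 and 11.15. Pan replicates 1 to 3 were thus above all vehicle and C1 samples, while pan replicate 4 was below all vehicle samples and inside the C1 range. As normalized counts the means were 2965 ± 289 in vehicle (SD, n = 3), 4350 ± 1568 in pan (SD, n = 4) and 2528 ± 529 in C1 (SD, n = 4). Within the C1 group replicate 1 was level with the highest vehicle sample and the other replicates were lower than every vehicle sample.

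**Figure D1:**
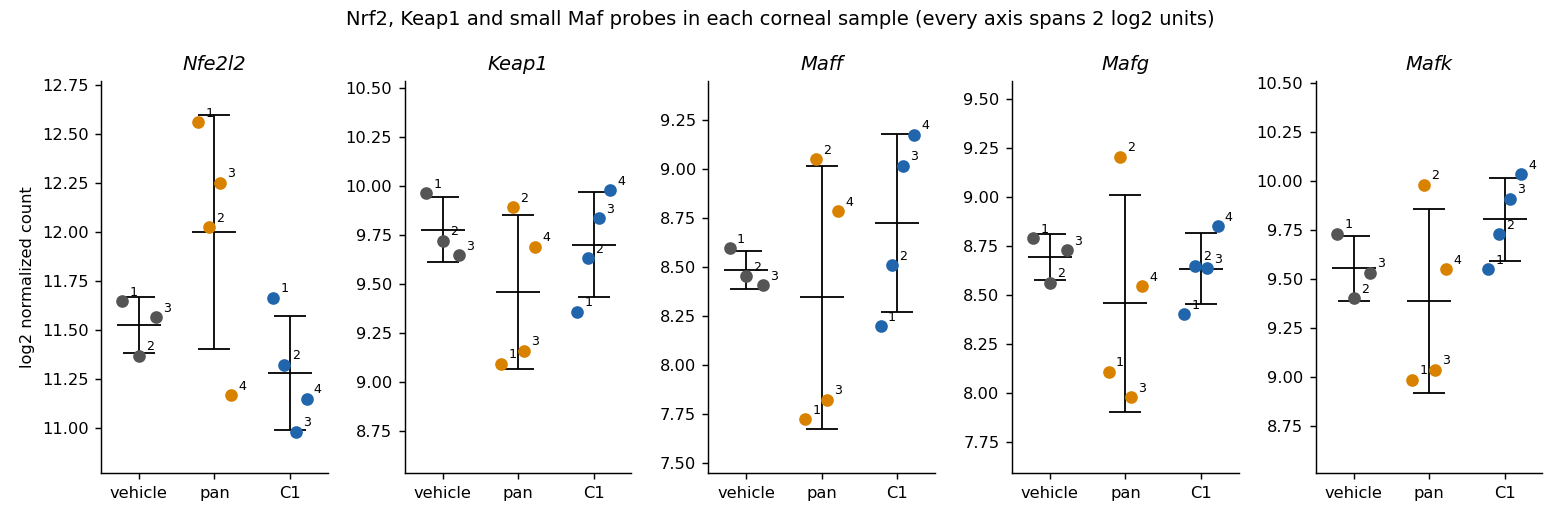
Log2 normalized count of each member (vertical axis, 2 log2 units in every panel) in each sample, by group, with the replicate number beside each point and the group mean ± SD as bars. Pan replicates 1 and 3 are high for Nfe2l2 and low for Keap1 and the small Maf genes, and pan replicate 4 is below every vehicle sample for Nfe2l2.

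With pan against vehicle, the limma log2 fold change of Nfe2l2 was 0.47 (SE 0.34, 95% interval -0.32 to 1.27, adjusted p = 0.594 over 248 genes), and without pan replicates 1 and 3 it was 0.0689. Leaving out 1 sample at a time gave 0.29 to 0.75. C1 against vehicle gave -0.25 (SE 0.19, interval -0.70 to 0.21, limma adjusted p = 0.728). Between the agonists, C1 was 0.606-fold the pan level (interval 0.370 to 0.993, log2 fold change -0.72, SE 0.31), with an unadjusted limma p of 0.0476 and an adjusted p of 0.313. An exact two-sided permutation test of the same samples gave p = 0.0857, where 0.0286 is the smallest p that 4 against 4 samples allow. The difference thus did not pass the threshold, and its interval runs from a change near 0 to a fall of more than 1 log2 unit. Without pan replicates 1 and 3 it was -0.32 (limma adjusted p = 0.956). The doubted 22 to 24 month label leaves a single pan sample, replicate 4, which was 0.11 log2 units below the mean of the 4 C1 samples; 1 sample allows no test. Within the 2 to 3 month label, where pan replicates 1 to 3 stood against vehicle, the log2 fold change was 0.75 (limma adjusted p = 0.226).

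Keap1, whose product retains Nrf2, was lowest in pan samples that were high in Nfe2l2. Its log2 levels were 9.96, 9.72 and 9.65 in vehicle replicates 1 to 3. Pan replicates 1 to 4 had 9.09, 9.89, 9.16 and 9.69, and C1 replicates 1 to 4 had 9.36, 9.63, 9.83 and 9.98. The low pan values were those of replicates 1 and 3, the samples with the highest Nfe2l2 levels, and the 3 groups overlapped. Mean normalized counts were 880 ± 103 in vehicle (SD, n = 3), 723 ± 197 in pan (SD, n = 4) and 842 ± 152 in C1 (SD, n = 4). The limma log2 fold change was -0.32 for pan against vehicle (SE 0.27, adjusted p = 0.642), -0.08 for C1 against vehicle (SE 0.19, adjusted p = 0.905) and 0.24 for C1 against pan (SE 0.25, adjusted p = 0.654). Without pan replicates 1 and 3, the values were 0.0135 for pan against vehicle and -0.0896 for C1 against pan. With 1 sample left out at a time, they ran from -0.46 to -0.20 and from 0.12 to 0.39.

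The ratio of Nfe2l2 to Keap1 within a sample does not depend on how the sample was scaled. The ratio of 1 probe to another is set by both probes' efficiencies too, so it was compared between samples only. On the log2 scale the ratio was 1.69, 1.65 and 1.92 in vehicle replicates 1 to 3. In pan replicates 1 to 4 it was 3.47, 2.14, 3.10 and 1.48, and in C1 replicates 1 to 4 it was 2.31, 1.70, 1.15 and 1.17. The counting error of a single ratio was at most 0.116 (1 standard error), which leaves out all differences between samples. As linear ratios the means were 3.38 ± 0.352 in vehicle (SD, n = 3), 6.71 ± 3.796 in pan (SD, n = 4) and 3.17 ± 1.28 in C1 (SD, n = 4). The log2 ratio differed by 0.79 between pan and vehicle (SE 0.46, exact permutation p = 0.229) and by -0.96 between C1 and pan (SE 0.53, exact permutation p = 0.143). Adjusted over the 12 ratio tests both came to 0.571, and the group ranges overlapped in each comparison. Without pan replicates 1 and 3, the differences were 0.055 and -0.23. With 1 sample left out at a time, they ran from 0.48 to 1.15 and from -1.32 to -0.66.

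The highest and the lowest ratios lay at the ends of the range of total counts. Pan replicates 1 and 3, with the 2 lowest totals, had the highest ratios, and C1 replicates 3 and 4 and pan replicate 4, with the 3 highest totals, had the lowest. Every sample of the 22 to 24 month label had a total of 165828 or more and every other sample one of 133098 or less, so total count and that label cannot be told apart. The same gap separates the C1 from the vehicle totals, so the fits with the total compare these groups at totals that they do not share. In one fit of all 3 groups with log2 total count as a covariate, the log2 ratio fell by 0.54 per doubling of the total (SE 0.12). The difference of pan from vehicle at a given total was then 0.94 (SE 0.27) and that of C1 from vehicle 0.66 (SE 0.32), while that of C1 from pan was -0.28 (SE 0.29). For Nfe2l2 alone, the limma slope was -0.37 per doubling (SE 0.07, adjusted p = 0.0906 over 248 genes), and for Keap1 it was 0.18 (SE 0.09, adjusted p = 0.382). With the total in the fit, the log2 fold change of Nfe2l2 was 0.57 for pan against vehicle (limma adjusted p = 0.0926), 0.31 for C1 against vehicle (adjusted p = 0.635) and -0.26 for C1 against pan (adjusted p = 0.926). The sign for C1 against vehicle is thus the opposite of that without the total. The part of the total count in the values of Nfe2l2 beyond these fits was not tested.

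**Figure D2:**
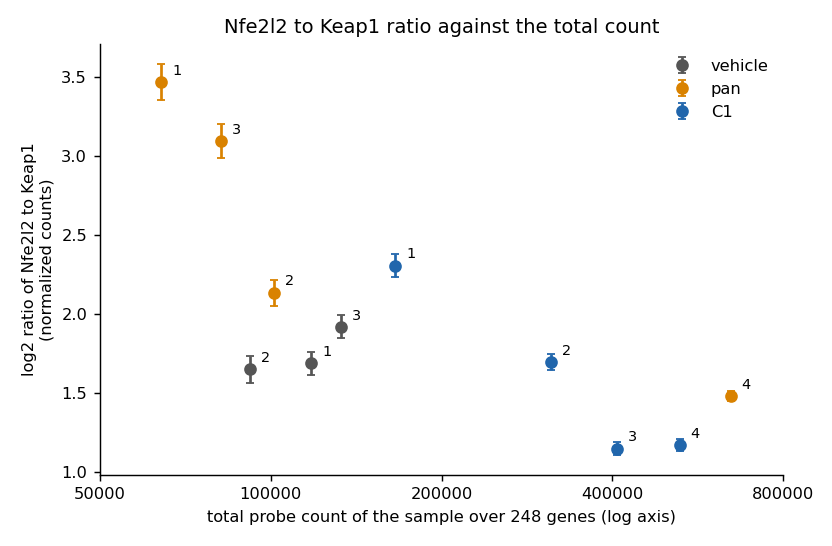
Log2 ratio of Nfe2l2 to Keap1 normalized counts (vertical axis) against the sample's total probe count (horizontal log axis) for each of the 11 samples, with the replicate number beside each point and bars of 1 standard error for counting alone. Pan replicates 1 and 3 lie at the upper left (3.47 and 3.10), and the 3 samples with the highest totals, among them pan replicate 4, lie between 1.15 and 1.48.

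The small Maf genes varied together from sample to sample. Mafk, whose product is a widely expressed partner of Nrf2 and of the blood-cell factor p45, had log2 levels of 9.73, 9.40 and 9.53 in vehicle replicates 1 to 3. Pan replicates 1 to 4 had 8.98, 9.98, 9.03 and 9.55, and C1 replicates 1 to 4 had 9.55, 9.73, 9.91 and 10.03. The pan samples therefore reached both below and nearly as high as the C1 samples, and all groups overlapped. Mean normalized Mafk counts were 755 ± 87.7 in vehicle (SD, n = 3), 697 ± 236 in pan (SD, n = 4) and 901 ± 131 in C1 (SD, n = 4). The largest fitted Mafk difference was 0.42 log2 units for C1 against pan (SE 0.26, interval -0.18 to 1.01, limma adjusted p = 0.470), and that against vehicle was 0.25 (SE 0.17, limma adjusted p = 0.623). Without pan replicates 1 and 3, C1 differed from pan by 0.0395, and pan from vehicle by 0.21 in place of -0.17. With 1 sample left out at a time, these ran from 0.28 to 0.61 and from -0.36 to -0.03.

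Mafg, which encodes another widely expressed partner of Nrf2, had log2 levels of 8.79, 8.56 and 8.73 in vehicle replicates 1 to 3. In pan replicates 1 to 4 they were 8.11, 9.21, 7.98 and 8.54, and in C1 replicates 1 to 4 they were 8.40, 8.65, 8.64 and 8.85. Pan replicates 1 and 3 were again the lowest samples and pan replicate 2 the highest. Mean normalized counts were 415 ± 33.2 in vehicle (SD, n = 3), 373 ± 154 in pan (SD, n = 4) and 400 ± 50.4 in C1 (SD, n = 4). The limma log2 fold change of Mafg was -0.23 for pan against vehicle (SE 0.33, adjusted p = 0.819), -0.06 for C1 against vehicle (SE 0.15, adjusted p = 0.905) and 0.18 for C1 against pan (SE 0.29, adjusted p = 0.740). Both values with pan changed sign without pan replicates 1 and 3, to 0.18 against vehicle and -0.24 for C1 against pan. With 1 sample left out at a time, they ran from -0.48 to -0.07 and from 0.0158 to 0.43.

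Maff, the small Maf gene known to be induced by cytokines and stress, spread most within the treated groups. Vehicle replicates 1 to 3 lay close together at log2 levels of 8.59, 8.45 and 8.40. Pan replicates 1 to 4 had 7.72, 9.05, 7.82 and 8.78, and C1 replicates 1 to 4 had 8.19, 8.51, 9.02 and 9.17. The SD of the log2 level was 0.10 in vehicle, 0.67 in pan and 0.45 in C1, and both treated groups held values above and below all vehicle samples. Mean normalized counts were 359 ± 24.8 in vehicle (SD, n = 3), 352 ± 158 in pan (SD, n = 4) and 438 ± 132 in C1 (SD, n = 4). The limma log2 fold change of Maff was -0.14 for pan against vehicle (SE 0.37, adjusted p = 0.942) and 0.24 for C1 against vehicle (SE 0.26, adjusted p = 0.787). Between the agonists it was 0.38 (SE 0.37, adjusted p = 0.621), and without pan replicates 1 and 3 it was -0.19, with 0.43 for pan against vehicle. With 1 sample left out at a time, it ran from 0.17 to 0.62 between the agonists and from -0.38 to 0.0668 for pan against vehicle. Per doubling of the total count, Maff rose by 0.31 log2 units in the limma fit with the total as a covariate (SE 0.13), with an unadjusted p of 0.0427 and an adjusted p of 0.291. In that fit its difference of C1 from vehicle was -0.23, against 0.24 without the total.

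No member passed an adjusted p of 0.05 in limma in any of the 3 comparisons. Over all 248 genes that threshold was passed by 5 genes with pan against vehicle (2.02%), by 0 with C1 against vehicle (0%) and by 1 with C1 against pan (0.403%). At an unadjusted p under 0.05, 0 of the 5 members passed with pan against vehicle, where 31 genes (12.5%) did, and 0 with C1 against vehicle, where 26 genes (10.5%) did. With C1 against pan 1 member, Nfe2l2, passed it beside 38 of all genes (15.3%), a share of the members close to that of the panel. The exact permutation p of the members ranged from 0.0857 to 0.743 in the 3 comparisons. With 3 against 4 samples no permutation p can be lower than 0.0571. The p-values measure the spread between these samples, which the study calls biological replicates. The intervals remained wide: with pan against vehicle, that of Maff ran from 0.501-fold to 1.64-fold and that of Nfe2l2 from 0.801-fold to 2.41-fold, so changes of that size are not shown to be absent. Where a level does differ, fewer cells of a type and less RNA per cell cannot be told apart in such bulk samples.

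**Figure D3:**
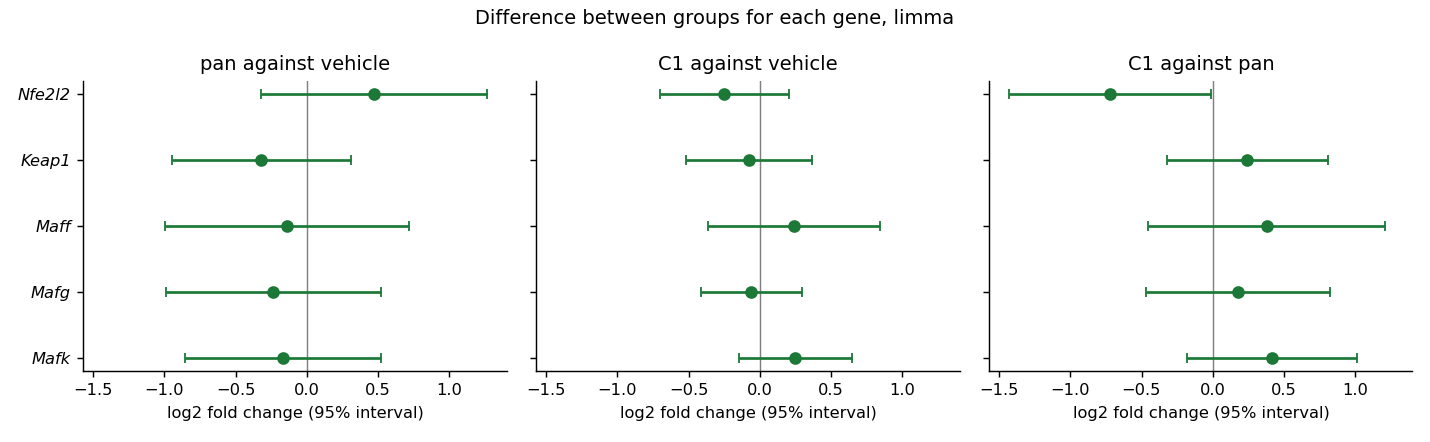
Log2 fold change of each member (horizontal axis) with its 95% limma interval in the 3 comparisons, where positive values mean higher in the group named first. All intervals include 0 except that of Nfe2l2 for C1 against pan, which runs from -1.43 to -0.01 before any adjustment for 248 genes.

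Within a sample, the ratio of Mafg to Mafk separated the C1 samples from all others. Its log2 value was -0.94, -0.84 and -0.80 in vehicle replicates 1 to 3. In pan replicates 1 to 4 it was -0.88, -0.77, -1.06 and -1.004, and in C1 replicates 1 to 4 it was -1.14, -1.08, -1.27 and -1.18. All 4 C1 samples were thus below all 7 samples of the other groups, by a margin of 0.019 between C1 replicate 2 and pan replicate 3 that is within their counting errors of 0.07 and 0.19. As linear ratios the means were 0.551 ± 0.0270 in vehicle (SD, n = 3), 0.527 ± 0.0468 in pan (SD, n = 4) and 0.445 ± 0.0251 in C1 (SD, n = 4). C1 differed from vehicle by -0.31 log2 units (SE 0.06, 0.807-fold, exact two-sided permutation p = 0.0571) and from pan by -0.24 (SE 0.08, 0.846-fold, exact two-sided permutation p = 0.0286). Each of these is the smallest p that its comparison allows, the comparisons share the C1 samples, and adjusted over 12 ratio tests both came to 0.343. Pan differed from vehicle by -0.068 (SE 0.08, exact permutation p = 0.400).

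A separation of C1 from a single other group was not rare on this panel, and the share of pairs that separate C1 from both groups was not counted. Among the 8515 pairs of well-detected genes, the ratio of 1644 pairs (19.3%) did not overlap between C1 and vehicle, and that of 673 pairs (7.9%) did not overlap between C1 and pan. The slope of this ratio on the total count was -0.031 per doubling (SE 0.034), and with the total in the fit the difference of C1 was -0.26 from vehicle (SE 0.09) and -0.20 from pan (SE 0.08). Pan replicate 4, which had the highest total and the 22 to 24 month label, had a log2 ratio of -1.004. It was below all 3 vehicle samples and pan replicates 1 and 2, and above the C1 samples by a gap, to C1 replicate 2, of about their counting errors of 0.05 and 0.07. The part of the total count and of the age label in this ratio was not tested further. Without pan replicates 1 and 3 the difference between C1 and pan was -0.28, and over the samples left out 1 at a time it ran from -0.28 to -0.19, and against vehicle from -0.35 to -0.27. Subtracting the background gave -0.31 against vehicle and -0.24 against pan.

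The ratios of Maff behaved otherwise. The log2 ratio of Maff to Mafg was -0.20, -0.11 and -0.32 in vehicle replicates 1 to 3, and -0.39, -0.16, -0.16 and 0.24 in pan replicates 1 to 4. In C1 replicates 1 to 4 it was -0.21, -0.14, 0.38 and 0.32. The 3 samples above 0 were those with the highest totals, pan replicate 4 among them, and the ratio rose by 0.19 per doubling of the total (SE 0.06). The difference between C1 and vehicle was 0.30 (SE 0.17, exact permutation p = 0.286), and with the total in the fit it was 0.0083 (SE 0.15). For Maff to Mafk, the group means of the log2 ratio were -1.07 ± 0.11 in vehicle (SD, n = 3), -1.04 ± 0.24 in pan (SD, n = 4) and -1.08 ± 0.24 in C1 (SD, n = 4), so that the groups differed by at most 0.037.

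**Figure D4:**
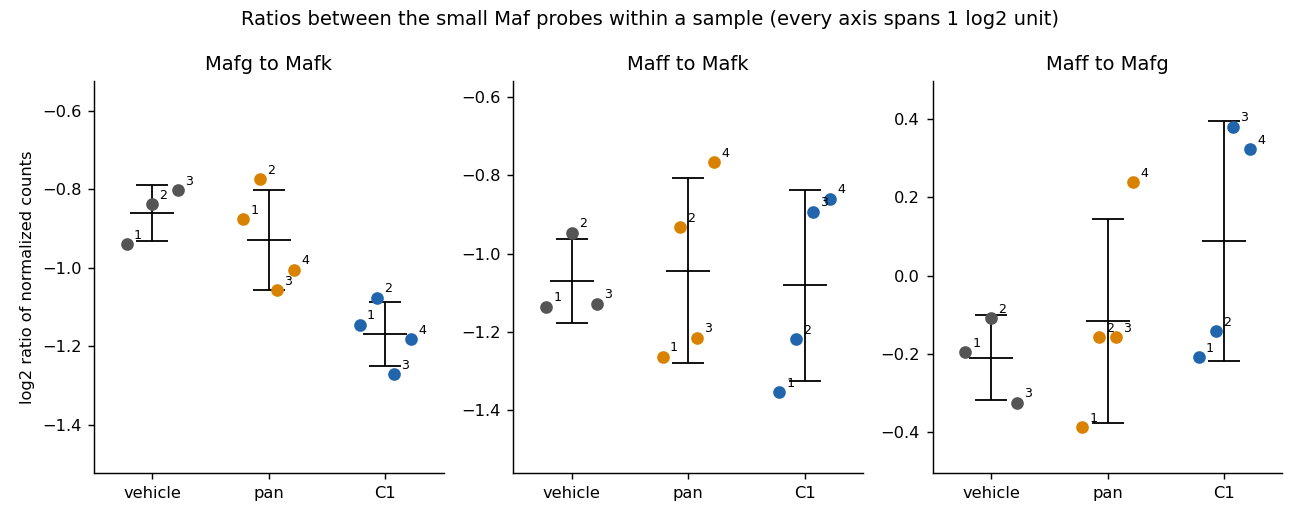
Log2 ratio of normalized counts between the small Maf genes (vertical axis, 1 log2 unit in every panel) in each sample, by group, with the replicate number beside each point and the group mean ± SD as bars. For Mafg to Mafk the C1 samples lie from -1.27 to -1.08, below all other samples, whereas both Maff ratios overlap between all groups.

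Over the 11 samples, Keap1 and the small Maf genes ran in parallel and Nfe2l2 ran against them. Pearson's r of the log2 values is given as a description only, since samples share groups and total counts. Between Keap1 and Maff, Mafg and Mafk it was 0.92, 0.89 and 0.89, and among the small Maf genes it lay between 0.85 and 0.94. Nfe2l2 correlated with Keap1 at -0.69, with Maff at -0.72, with Mafg at -0.44 and with Mafk at -0.67. Over all pairs of the 131 well-detected genes the median r was 0.14, with 5% of the pairs at or above 0.85 and 5% at or below -0.70. After group means were removed, r of Nfe2l2 was -0.64 with Keap1, -0.71 with Maff, -0.38 with Mafg and -0.51 with Mafk, and that of Keap1 and Maff was 0.98.

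The gene most like Nfe2l2 across the samples was Mef2a, a transcription factor of muscle and stress signalling (r = 0.97), followed by Rela, which encodes the p65 subunit of NF-kB (0.96), and Daxx (0.95). Least like it was Tlr4, the receptor for bacterial lipopolysaccharide (-0.92). Keap1 was most like Myd88, the adaptor of most Toll-like receptors (0.98), Grb2 (0.96) and Mapk14, which encodes the p38 kinase (0.96). For Maff the nearest were Mapkapk2, a kinase downstream of p38 (0.98), Rock2 (0.98) and Gnas (0.95). Mafk was nearest to Mapkapk2 (0.96), Maff (0.94) and Grb2 (0.94). Mafg had no neighbour as close: Ltb4r2, a leukotriene B4 receptor (0.90), Nr3c1, the glucocorticoid receptor gene (0.90), and Hspb1 (0.89). With the group means removed, Mafg and Mafk were each other's nearest gene (0.96), and Maff was second only to Mapkapk2 for Keap1. All these values are over 11 samples.

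Related factors and regulators of Nrf2 on the panel also gave no call. Of 6 genes for other basic leucine zipper proteins that bind similar elements or pair with Nrf2 or the Mafs, 0 passed limma's adjusted p of 0.05 in any comparison. Their median log2 fold change was 0.20 for pan against vehicle, 0.21 for C1 against vehicle and 0.15 for C1 against pan. The medians were -0.07, 0.02 and 0.13 over the well-detected genes, to which all 6 belong, and -0.20, -0.02 and 0.23 over all 248 genes. Jun, a subunit of AP-1, had 872 ± 110 normalized counts in vehicle (SD, n = 3), 1182 ± 229 in pan (SD, n = 4) and 1332 ± 248 in C1 (SD, n = 4). Its log2 fold change for C1 against vehicle was 0.60 (SE 0.19, limma adjusted p = 0.371). Of 7 kinases reported to phosphorylate Nrf2 or to act upstream of it, all well detected, again 0 were called in any comparison. Their medians were -0.16, -0.05 and 0.16 in the same order, to be read beside the same panel medians. Mapk3, which encodes ERK1, had 3338 ± 189 normalized counts in vehicle (SD, n = 3), 2465 ± 697 in pan (SD, n = 4) and 3022 ± 176 in C1 (SD, n = 4), and its log2 fold change for pan against vehicle was -0.48 (limma adjusted p = 0.517), or -0.12 without pan replicates 1 and 3.

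Enzymes that form oxidants and oxidised lipids gave no call either. Of 7 such genes 3 were well detected and 0 passed limma's adjusted p in any comparison. Their median log2 fold change was -0.83 for pan against vehicle, 0.08 for C1 against vehicle and 0.44 for C1 against pan. With pan against vehicle, the 3 well-detected genes lay between -0.14 and 0.24, while the 20 background genes had a median of -0.69 and all genes one of -0.20. The other 4 genes, among them the row of Nos2, whose gene ID is that of another gene, stayed under 40 normalized counts in every sample. Alox15, the lipoxygenase that makes oxidised fatty acids in corneal epithelium, had 897 ± 65.8 normalized counts in vehicle (SD, n = 3), 1102 ± 372 in pan (SD, n = 4) and 1441 ± 196 in C1 (SD, n = 4). Its log2 fold change for C1 against vehicle was 0.68 (SE 0.15, limma adjusted p = 0.211). Of the 3 inflammatory genes that Nrf2 is known to hold down in macrophages, only Il1a, an alarmin of epithelial cells, was well detected. It had 339 ± 67.4 normalized counts in vehicle (SD, n = 3), 888 ± 442 in pan (SD, n = 4) and 501 ± 83.5 in C1 (SD, n = 4), with a log2 fold change of 1.26 for pan against vehicle (SE 0.42, limma adjusted p = 0.239) that was 0.61 without pan replicates 1 and 3.

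Markers of other cells differed in level between the samples as well. The summed level of 8 macrophage markers was 222 to 357 normalized counts in vehicle, 161 to 229 in pan and 262 to 369 in C1, so that all pan samples were below all C1 samples. Among single genes of the panel, 19 (7.66%) lay wholly higher in C1 than in pan. The markers' median log2 fold change was -0.48 for pan against vehicle and 0.32 for C1 against vehicle. Of these markers 0 were called in any comparison and Trem2 was at background, with 3.30 ± 1.30 normalized counts in vehicle (SD, n = 3). The 3 T cell markers on the panel summed to 19.7 to 26.0 normalized counts in vehicle, 12.98 to 17.4 in pan and 20.6 to 30.7 in C1. The pan sums were the lowest, but 0 of these 3 genes were well detected and their levels were near background. That background was itself 7.81 to 11.985 normalized counts in vehicle and 4.64 to 7.14 in pan. The markers also differed in direction: with pan against vehicle the log2 fold change was -1.68 for Cd4, -0.91 for Fasl and 1.14 for Cd40lg. Of all single genes, 21 (8.47%) were lower in every pan than in every vehicle sample. The part of these cells in the levels of the members was not tested.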

How the data were processed

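RNA of mouse corneas was measured by the authors with the NanoString nCounter mouse Inflammation panel, on which a barcoded probe per gene is counted without amplification. The authors scaled the counts of each sample in ROSALIND on its housekeeping probes (geometric mean). They deposited log2 normalized counts of 248 genes in 2 tables, each of 1 agonist beside vehicle; their log2 fold changes and p-values in the same tables were not used. The 3 vehicle columns did not differ between the tables, which puts all 11 samples on 1 scale. Probe counts were recovered as whole multiples of each sample's smallest step (deviation at most 0.00016), and were used for totals, counting errors and voom weights.

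Each comparison was fitted with limma 3.58.1 (lmFit, eBayes) in R 4.3.3 on the deposited log2 values of its 2 groups, with no covariate, filter or pseudocount, and Benjamini-Hochberg adjustment over 248 genes. Exact two-sided permutation tests of group means were run in Python 3.11.15 with numpy 2.4.6 and pandas 2.3.3; matplotlib 3.10.9 drew the figures. The limma step was checked on simulated data with known changes. Samples were not paired by replicate number in the main fits, and the check of pairing given below does not settle whether the numbers pair them. Alternatives were median centring, only well-detected genes, a floor of 20 normalized counts, a mean-dependent or robust prior variance, all 3 groups in 1 fit, a replicate block, log2 total count or age label as a covariate, voom weights, background subtraction (floor of 1 normalized count) and each sample left out. Leaving out pan replicates 1 and 3 together, and the total as a covariate for ratios, were added after seeing the data.

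The members, lists and tests were chosen with earlier results of these data known. Named besides the members are genes of fixed lists and, for each member, the 3 genes with the highest Pearson r among well-detected genes; the list genes given with values were chosen after their values were seen. Gene names are the tables' symbols, of which 238 matched the RefSeq symbol of the gene ID given. No protein sequences were used here.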

Additional observations from a re-analysis of the deposited data

How the results depend on the processing

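No member was called under any alternative in any comparison (290 member values, 21 with the opposite sign of the reported one), and none of the changed signs belonged to a called value. Without pan replicates 1 and 3, the log2 fold changes for pan against vehicle were 0.0135 for Keap1, 0.43 for Maff, 0.18 for Mafg and 0.21 for Mafk, and those for C1 against pan were -0.0896 for Keap1, -0.19 for Maff and -0.24 for Mafg, with Mafk at 0.0395 in place of 0.42 and Nfe2l2, for pan against vehicle, at 0.0689 in place of 0.47. With the total as a covariate, Nfe2l2 was 0.31 and Maff -0.23 for C1 against vehicle, and Maff -0.0086 for C1 against pan. With the age label as a covariate, C1 against vehicle gave 0.86 for Nfe2l2 and -0.35 for Maff, and C1 against pan, in that fit as within the 22 to 24 month label, 0.11 for Nfe2l2 and -0.0592 for Maff. Vehicle and C1 samples each carry a single label, so the label's part in that fit rests on pan replicate 4 against the other pan samples. These values therefore do not separate age from treatment. Leaving out 1 sample gave -0.38 to 0.0668 for Maff with pan against vehicle (above 0 without pan replicate 1 or 3), and with C1 against vehicle -0.17 to 0.0377 for Keap1 and -0.13 to 0.0189 for Mafg. Of 144 ratio values 16 changed sign. With the total as a covariate these were 0.66 for Nfe2l2 to Keap1 with C1 against vehicle, -0.0168 for Maff to Mafk with pan against vehicle and -0.0345 for Maff to Mafg with C1 against pan; as linear ratios after background subtraction, Maff to Mafk with C1 against vehicle was 0.0079. Leaving out 1 sample gave, for Maff to Mafk, -0.0666 to 0.0991 with pan against vehicle, -0.0848 to 0.0795 with C1 against vehicle and -0.11 to 0.0556 with C1 against pan, and for Maff to Mafg with pan against vehicle -0.024 to 0.18. The ratio of Mafg to Mafk kept its sign in all of them. The cause of these changes was not tested.

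Counts of called genes over the panel were as follows. With pan against vehicle, 5 genes became 1 among well-detected genes alone, 2 with the floor, 8 with the total, 9 with the age label, 3 after background subtraction, 0 without pan replicates 1 and 3, and 1 to 7 when 1 sample was left out (1 without vehicle replicate 2 or 3, 2 without pan replicate 1 or 4, 3 without pan replicate 2 or 3). C1 against vehicle, with 0 genes, gave 4 among well-detected genes, 2 with the mean-dependent prior and 1 after background subtraction, and 0 to 0 over the samples left out. With C1 against pan, the 1 gene was lost (0 called) with median centring, either other prior, all groups in 1 fit, the total, voom weights, background subtraction, the age label, within the 22 to 24 month label and without pan replicates 1 and 3; leaving out 1 sample gave 0 to 1, with 0 without pan replicate 1 or 3 or any C1 replicate. With the replicate number as a block the counts were 5, 0 and 1, no member was called, and the log2 fold change of Nfe2l2 was 0.75, -0.20 and -0.72 in the 3 comparisons. Vehicle has no replicate 4, so the values against vehicle are those without replicate 4 of the treated group. In C1 against pan, where every number occurs in both groups, a block cannot change the log2 fold change. Same-numbered samples deviated together with r from -0.05 to 0.57, and not every sample was nearest to its own number. Depth limits the low totals most: Maff had 65 counts in pan replicate 1.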
